A study of Mus musculus with 84 samples.

Results

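The genes described here are 8 genes by which glutamatergic neurons, the excitatory neurons of the cortex, are commonly recognised: Slc17a7, Slc17a6 and Slc17a8, Neurod1, Neurod2 and Neurod6, Emx1, and Nrgn. They were taken as a named list, matched by symbol to the gene identifiers of the count files, and all 8 were found among 55401 gene IDs and were among the 17941 genes that passed the filter on low counts. RNA had been sequenced from nuclei of the mouse frontal cortex that were sorted for NeuN, a protein of neuronal nuclei, so that the libraries hold nuclear RNA of excitatory and inhibitory neurons together. All mice were of the strain 129S6/SvEvTac and 12 weeks old. One group had received vehicle, and 3 groups had received an injection of 2,5-dimethoxy-4-iodoamphetamine (DOI), a psychedelic agonist of serotonin 2A receptors, and were sampled 24 h, 48 h or 7 days later. RNA of 4 mice a group was analysed, with 2 libraries for each mouse. Their counts were added up, and each mouse gave 1 replicate (n = 4 in every group). No allele or further treatment is named in the labels, and the dose is not given there.

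Glutamatergic neurons load glutamate into synaptic vesicles with a vesicular glutamate transporter. VGLUT1, encoded by Slc17a7, is the main form in cortical pyramidal neurons, VGLUT2 (Slc17a6) is best known from thalamic and other subcortical neurons, and VGLUT3 (Slc17a8) is found in small populations that often release another transmitter as well. Neurod1, Neurod2 and Neurod6 encode basic helix-loop-helix (bHLH) transcription factors that bind E-box sequences together with E proteins and act in the differentiation of cortical excitatory neurons. Neurod2 and Neurod6 stay on in mature pyramidal neurons. Emx1 is a homeobox gene of the dorsal telencephalon, the source of cortical excitatory neurons, and Nrgn encodes neurogranin, a postsynaptic protein that binds calmodulin and is abundant in cortical pyramidal neurons.

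In the GRCm38 annotation of the count files, Slc17a7 (ENSMUSG00000070570) lies at chr7:45163949-45176142 on the plus strand and Slc17a6 (ENSMUSG00000030500) at chr7:51622006-51671119 on the plus strand. Slc17a8 (ENSMUSG00000019935) lies at chr10:89574020-89621253, Neurod1 (ENSMUSG00000034701) at chr2:79452521-79456751, Neurod2 (ENSMUSG00000038255) at chr11:98325415-98329648 and Neurod6 (ENSMUSG00000037984) at chr6:55677822-55681263, all on the minus strand. Emx1 (ENSMUSG00000033726) lies at chr6:85187438-85204462 on the plus strand and Nrgn (ENSMUSG00000053310) at chr9:37544492-37552904 on the minus strand. Counts cover the exons of each gene, introns left out, and the exon length ranged from 1453 bp for Nrgn to 5399 bp for Slc17a6. Neurod1 shares exon bases with Cerkl on the same strand, where reads fall to neither gene under the counting used, so its level is uncertain. For the other 7 genes no exon base was shared.

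Because NeuroD factors bind E-boxes, the promoter windows of the 8 genes were searched for the E-box forms named below. Other forms of E-box were not searched for and may be present. Each RefSeq window (build GRCm38.p6) runs from 250 bases before to 50 bases after an annotated start, and the 8 genes have 10 windows. The E-box CAGATG, or its reverse complement CATCTG, was present in 4 of the 10 windows (Neurod2, Nrgn and the second annotated start of both Slc17a6 and Slc17a8), against 17.2% of all 32851 windows. The E-box CAGCTG, which reads the same on both strands, was in none of the 10 windows and in 16.3% of all windows. Both strands were covered, and the motifs do not overlap each other. A match is a run of letters and not a bound site. Windows of 3 genes are shown because their values below differ in kind: Slc17a7 was lower and Neurod2 higher on average after 24 h, and Neurod6 was close to vehicle. Each runs from the start of the window to the last base before any annotated exon, 5′ to 3′ on the gene's strand. Any match to a searched form is in capitals. They are chr7:45163671-45163920 (plus strand), chr11:98329649-98329895 and chr6:55681264-55681513 (both minus strand).
Slc17a7: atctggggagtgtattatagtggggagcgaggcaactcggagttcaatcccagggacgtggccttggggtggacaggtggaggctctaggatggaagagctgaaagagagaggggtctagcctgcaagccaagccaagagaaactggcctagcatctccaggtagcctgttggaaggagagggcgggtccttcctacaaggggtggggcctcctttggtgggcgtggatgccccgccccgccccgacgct
Neurod2: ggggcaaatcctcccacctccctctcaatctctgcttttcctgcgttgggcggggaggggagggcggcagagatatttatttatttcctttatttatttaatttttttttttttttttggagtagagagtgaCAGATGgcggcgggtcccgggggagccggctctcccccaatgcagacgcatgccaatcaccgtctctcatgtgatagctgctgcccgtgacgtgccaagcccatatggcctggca
Neurod6: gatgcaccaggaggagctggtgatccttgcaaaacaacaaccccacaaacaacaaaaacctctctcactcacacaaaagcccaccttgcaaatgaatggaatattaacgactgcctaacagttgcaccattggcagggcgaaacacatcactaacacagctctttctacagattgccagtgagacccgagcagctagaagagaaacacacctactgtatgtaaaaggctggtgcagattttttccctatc
The match in Neurod2 begins 118 bases upstream of the RefSeq start. The Slc17a7 and Neurod6 windows held neither motif. The window of Slc17a7 was 63.7% G or C, that of Neurod2 55.3% and that of Neurod6 46.3%, beside a median of 52.7% over all windows.

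The libraries held 2763704 to 7436451 counts. Summed over the 2 libraries, totals were 9151680 to 11517452 counts for vehicle mice, 6441396 to 8090559 for 24 h mice, 5834248 to 7344355 for 48 h mice and 6972577 to 12354785 for 7-day mice. The ribosomal pseudogene Rn18s-rs5 took 0.00694% to 0.0101% of counts in vehicle mice, against 0.328% to 1.57% after 24 h and 0.523% to 1.66% after 48 h. Mitochondrial genes took 0.0171% to 0.0701%, 0.0621% to 0.101% and 0.108% to 0.268% in these groups. Depth was thus lower and the Rn18s-rs5 share higher in every 24 h and 48 h mouse than in any vehicle mouse. The mitochondrial share was higher than in any vehicle mouse at 48 h and overlapped vehicle at 24 h. The 7-day mice ran from 0.00607% to 0.633% for Rn18s-rs5 and from 0.021% to 0.13% for mitochondrial genes. The part of depth and both shares in the results below was not tested beyond the fits that carry each share as a covariate. With the Rn18s-rs5 share as a covariate no gene was called at 24 h or 48 h, against 4346 and 5395 genes without it. With the mitochondrial share 2263 genes were called at 24 h and 0 at 48 h. Every edgeR call against vehicle named below was thus lost with the first of these covariates. Some fold changes of the list genes were larger with it and others smaller, and they are given with both covariates after the lists. Of the other cells a sort could hold, the 13 GABAergic interneuron markers summed to 1753 to 3242 CPM in vehicle mice, 2155 to 3024 at 24 h and 2122 to 3238 at 48 h. The 9 astrocyte markers summed to 794 to 859 CPM in vehicle mice, 848 to 1203 at 24 h and 686 to 1198 at 48 h, with Gfap at most at 4.35 CPM in any mouse. Most of this sum was Slc1a2 (mean 501 CPM in vehicle mice, 704 at 24 h and 698 at 48 h). Of the 8 astrocyte markers tested 5 had negative fold changes at 24 h (median -0.16) and 4 at 48 h (median 0.040), as Aldoc did (mean 142, 95.04 and 84.6 CPM). The 8 microglia markers summed to 148 to 180, 84.0 to 170 and 103 to 151 CPM in these groups, and the 4 endothelial markers to at most 8.22 CPM in any mouse. The 9 oligodendrocyte markers summed to 171 to 384, 166 to 247 and 190 to 252 CPM. Of 8 tested, 1 fell at 24 h (Mbp) and 2 at 48 h (Cnp, Olig1), with median log2 fold changes of -0.75 and -0.77. The 10 markers of striatal projection neurons summed to 379 to 465 CPM in vehicle mice and to 301 to 364 CPM at 24 h, below every vehicle mouse, and to 382 to 741 CPM at 48 h. Of 8 tested, 2 fell at 24 h (Drd1, Ppp1r1b) and 1 rose at 48 h (Rgs9). Of the interneuron markers 2 rose and 2 fell at 24 h, and 2 rose and 1 fell at 48 h. Of the 2 markers of oligodendrocyte precursors Cspg4 rose at both times, from a vehicle mean of 0.539 CPM, and no astrocyte, microglia or endothelial marker was called. The part of these cells in the results was not tested. Of the 5 neuron markers, Rbfox3, which encodes the sorted protein NeuN, rose at 24 h (46.3 to 68.1 CPM in vehicle mice, 88.4 to 115 CPM at 24 h; log2 fold change 0.81, SE 0.20, adjusted p = 0.0103 in edgeR). Snap25, a synaptic fusion protein, fell (log2 fold change -0.58, SE 0.20, adjusted p = 0.0395). At 48 h Rbfox3 (0.82, SE 0.20, adjusted p = 0.00775) and Map2 (0.55, SE 0.19, adjusted p = 0.0400) rose and Snap25 fell (-0.62, SE 0.20, adjusted p = 0.0257). With 1 mouse left out the calls of Rbfox3 were kept in 8 of 8 fits at both times, those of Snap25 in 1 of 8 at 24 h and 4 of 8 at 48 h, and that of Map2 in 1 of 8. Of the other marker calls, Olig1 was kept in 6 of 8, Cspg4 in 2 of 8 at 24 h and 7 of 8 at 48 h, Drd1 in 3 of 8, and Mbp, Cnp, Ppp1r1b and Rgs9 in 1 or 2 of 8. CPM is the count scaled to a common library total with TMM factors, and 3 counts, the least taken as detectable, were worth 0.254 to 0.502 CPM in a mouse. Without molecular identifiers this floor covers counting error only.

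All 8 genes were above that floor in every mouse. Per kb of exon, the scale on which genes can be compared, Neurod6 stood at 28.4 ± 6.23 CPM per kb in vehicle mice (SD, n = 4) and Slc17a7 at 26.2 ± 3.67, and their ranges overlapped. Nrgn followed at 14.0 ± 2.04 CPM per kb, with no overlap with Slc17a7 above it or Neurod1 below it. Neurod1 (6.73 ± 0.631), Neurod2 (6.38 ± 0.749), Slc17a6 (4.44 ± 1.64) and Emx1 (3.99 ± 1.03 CPM per kb) came next, and each overlapped its neighbour in this order. Slc17a8 was lowest at 0.869 ± 0.472 CPM per kb, below Emx1 in every vehicle mouse. At 24 h and 48 h the order of the means was Neurod6, Nrgn, Slc17a7, Neurod2, Emx1, Neurod1, Slc17a6 and Slc17a8. Nrgn thus stood above Slc17a7, at 18.1 ± 0.909 against 15.1 ± 4.02 CPM per kb at 24 h, though the ranges of these genes overlapped. Neurod2 stood above Neurod1 with no overlap at 24 h (7.59 to 14.3 against 2.95 to 7.14 CPM per kb) and at 48 h (7.36 to 9.91 against 3.75 to 5.60). At 7 days the means were again ordered Neurod6, Slc17a7, Nrgn, and the ranges of Neurod2 and Neurod1 overlapped.

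**Figure D1:**
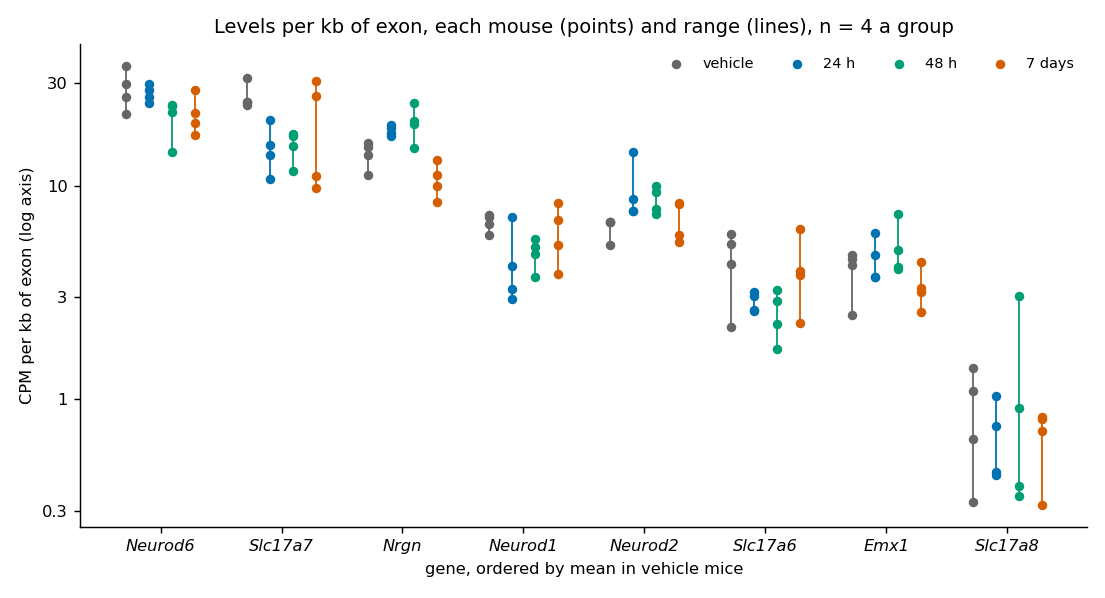
Level of each gene in CPM per kb of exon (log axis) in each mouse (points) with the range of the 4 mice of a group (lines), in the order of the vehicle means. By their means Neurod6, Slc17a7 and Nrgn lie highest and Slc17a8 lowest in every group.

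None of the 8 genes passed an adjusted p of 0.05 in edgeR's quasi-likelihood test against vehicle at 24 h, 48 h or 7 days, where 24.2%, 30.1% and 0% of all genes tested did. None was called between 2 DOI times either, where 0% (48 h against 24 h), 0.00557% (7 days against 24 h) and 0% (7 days against 48 h) of all genes were. At an unadjusted p under 0.05 there were 3 genes at 24 h (Slc17a7, Neurod1, Neurod2), 3 at 48 h (Slc17a7, Slc17a6, Nrgn) and 0 at 7 days, where 38.4%, 42.9% and 16.8% of all genes were under it. Other tools drew the line elsewhere. DESeq2 called Slc17a7 at 24 h and Slc17a7, Slc17a6 and Nrgn at 48 h, where it called 30.2% and 35.3% of all genes. Limma voom with quality weights called Slc17a7 and Neurod1 at 24 h and Slc17a7, Neurod6 and Nrgn at 48 h, where it called 40.3% and 43.4% of all genes. Neither called a member at 7 days against vehicle. These counts of members were near or below the shares of all genes. In a single test over all 4 groups 1 of the 8 genes was called, Nrgn (adjusted p = 0.0216), where 18.8% of all genes were. The median log2 fold change of the 8 genes was -0.22 at 24 h, -0.035 at 48 h and -0.31 at 7 days, and that of all genes tested 0.032, 0.022 and 0.015. At 24 h 5 of the 8 fold changes were negative, at 48 h 4 and at 7 days 7. The 4 treated mice did not overlap the 4 vehicle mice for 3 of 8 genes at 24 h (all genes 35.7%), for 3 of 8 at 48 h (38.1%) and for 0 of 8 at 7 days (5.85%). These shares of the list were near those of all genes. In bulk libraries such as these, fewer nuclei of a type and less RNA per nucleus cannot be told apart.

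**Figure D2:**
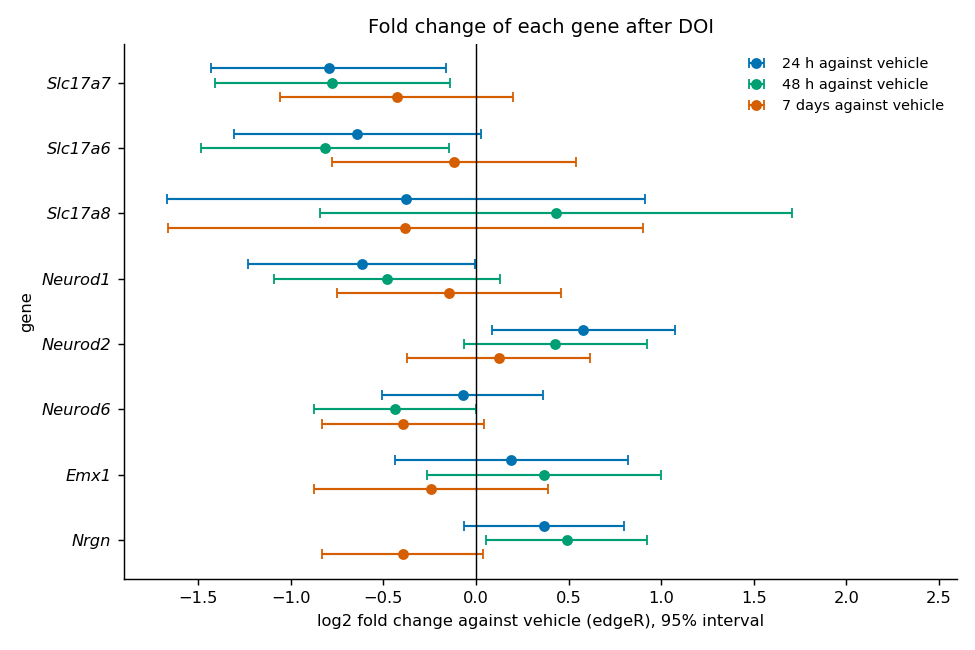
Log2 fold change of each gene against vehicle with its 95% interval at 24 h, 48 h and 7 days (edgeR, 4 mice a group). At 24 h the intervals of Slc17a7 and Neurod1 lie below 0 and that of Neurod2 above 0, at 48 h those of Slc17a7 and Slc17a6 lie below 0 and that of Nrgn above 0, and no adjusted p was under 0.05.

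Slc17a7, the vesicular transporter of cortical pyramidal neurons, was lower in every 24 h and 48 h mouse than in any vehicle mouse. Its adjusted p in edgeR was above 0.05 at each time, while 4 of 13 alternatives that keep to a threshold of 0.05 called it at 24 h and 5 of 13 at 48 h, DESeq2 and voom among them. The vehicle mice 1 to 4 had 171, 133, 133 and 129 CPM. The 24 h mice had 57.7, 83.8, 74.8 and 110 CPM, and the 48 h mice 62.9, 92.2, 93.5 and 82.3 CPM. Group means were 142 ± 19.8, 81.5 ± 21.7 and 82.7 ± 14.2 CPM (SD, n = 4). The log2 fold change was -0.80 at 24 h (SE 0.30, 95% interval -1.43 to -0.16, adjusted p = 0.0616) and -0.77 at 48 h (SE 0.30, interval -1.41 to -0.14, adjusted p = 0.0594), or 0.576 and 0.585 of the vehicle level. The 24 h and 48 h mice differed little (log2 difference 0.021, interval -0.61 to 0.65). At 7 days the mice had 166, 52.4, 142 and 60.0 CPM, a spread that ran from below every 24 h mouse to within the vehicle range (105 ± 57.4 CPM; log2 fold change -0.43, SE 0.30, adjusted p = 0.494). With the mitochondrial share as a covariate the 48 h fold change was -0.19, and with the Rn18s-rs5 share the 24 h value was -0.57. These shares differ between the groups themselves. With any 1 mouse left out the 24 h value ran from -0.98 to -0.66, with adjusted p from 0.0561 to 0.155.

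Slc17a6, the subcortical transporter gene, was lower on average in the same groups, but 1 vehicle mouse lay among the treated mice. Vehicle mice had 31.9, 11.8, 23.3 and 28.9 CPM, against 14.2, 17.1, 16.4 and 14.0 at 24 h and 9.27, 15.6, 12.2 and 17.5 at 48 h. The low value of vehicle mouse 2 put the groups in overlap. The log2 fold change was -0.64 at 24 h (SE 0.32, interval -1.31 to 0.026, adjusted p = 0.145) and -0.82 at 48 h (SE 0.32, interval -1.49 to -0.14, adjusted p = 0.0607). Without vehicle mouse 2 the 48 h value was -1.05 and was called (adjusted p = 0.0261). The 7-day mice had 33.9, 12.3, 20.7 and 21.4 CPM, and their mean of 22.1 ± 8.88 lay within the spread of the vehicle mice (24.0 ± 8.86; adjusted p = 0.875). Thalamic relay neurons, a source of VGLUT2, had low levels of their own markers: the 4 markers summed to 1.66 to 10.2 CPM over all mice. Prkcd, the only 1 of them tested, made up most of the mean sum, with 3.36, 3.74, 4.57 and 6.46 CPM in vehicle, 24 h, 48 h and 7-day mice, and was not called (log2 fold change 0.15, 0.44 and 0.94 against vehicle, SE 0.65 to 0.66). Gbx2 was at 0 in every treated mouse and in 3 of the 4 vehicle mice, with 0.189 CPM in the other.

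Slc17a8 was close to the limit of what these libraries resolve. It had 10 to 99 counts in a mouse, and its 2 libraries differed by a median ratio of 1.25 and up to 3.96. Vehicle mice had 1.57 to 6.61 CPM and the 24 h and 7-day mice 2.08 to 4.87 and 1.52 to 3.90. At 48 h mouse 1 had 14.3 CPM and the other three 1.67, 4.30 and 1.86. The log2 fold changes were -0.38 at 24 h, 0.43 at 48 h and -0.38 at 7 days, each with an SE of 0.61 or 0.62 and intervals from -1.67 at the lowest to 1.71 at the highest. Without 48 h mouse 1 the 48 h value was -0.67, so its direction rested on that mouse. These intervals span more than a 2-fold change.

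Within the transporter family, Slc17a7 made up 83.5% ± 4.69 of the transcripts per kb in vehicle mice, Slc17a6 13.9% ± 4.14 and Slc17a8 2.67% ± 1.18 (SD, n = 4). The share of Slc17a7 was 80.4% ± 4.67 at 24 h, 80.1% ± 6.29 at 48 h and 78.5% ± 6.88 at 7 days, within the spread of the groups. Its lowest values were 70.4% in 7-day mouse 4, where Slc17a6 made up 25.1%, and 71.0% in 48 h mouse 1, where Slc17a8 made up 18.5%. VGLUT1 was thus the leading transporter transcript in all 16 mice.

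Neurod1, the NeuroD factor best known from newborn neurons and endocrine cells, was lower on average after 24 h and 48 h. Vehicle mice had 18.1, 16.03, 19.8 and 19.5 CPM, the 24 h mice 19.5, 8.93, 11.5 and 8.05, and the 48 h mice 13.0, 14.1, 10.2 and 15.3. At 24 h mouse 1 lay among the vehicle mice and the other three below them, and at 48 h all 4 mice lay below. The libraries of 24 h mouse 1 differed, with 25.25 CPM in library 1 and 12.7 CPM in library 2, and the latter lay below every vehicle mouse. With library 2 of each mouse alone the 24 h log2 fold change was -0.86 and was called (adjusted p = 0.0293 in edgeR), and with library 1 alone it was -0.36 (adjusted p = 0.461). The log2 fold change was -0.62 at 24 h (SE 0.29, interval -1.23 to -0.0052, adjusted p = 0.127) and -0.48 at 48 h (SE 0.29, interval -1.09 to 0.13, adjusted p = 0.214). Without 24 h mouse 1 the 24 h value was -0.95 and was called (adjusted p = 0.0273). With the Rn18s-rs5 share as a covariate its sign turned, to 0.072 at 24 h and 0.46 at 48 h. The 7-day mice had 22.5, 14.5, 18.8 and 10.5 CPM (log2 fold change -0.15, adjusted p = 0.832).

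Neurod2, a factor of mature pyramidal neurons, had higher rather than lower means at these times. It stood at 16.5, 21.2, 21.3 and 21.2 CPM in the vehicle mice. At 24 h the mice had 45.1, 24.0, 23.8 and 27.1 CPM and at 48 h 24.3, 31.1, 23.1 and 29.4, so that every one of these 8 mice lay above every vehicle mouse. The log2 fold change was 0.58 at 24 h (SE 0.24, interval 0.085 to 1.07, adjusted p = 0.0781) and 0.43 at 48 h (SE 0.24, interval -0.066 to 0.92, adjusted p = 0.173), or 1.49 and 1.35 times vehicle. Mouse 1 at 24 h stood far above the rest, and without it the 24 h value was 0.32. At 7 days the mice had 18.4, 26.1, 17.0 and 25.9 CPM (log2 fold change 0.12, SE 0.24, adjusted p = 0.826).

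Neurod6, a factor of cortical and hippocampal pyramidal neurons, showed no difference at 24 h beyond the spread of the mice: 55.6, 46.4, 77.9 and 64.2 CPM in vehicle and 52.4, 60.3, 55.7 and 63.9 CPM at 24 h. The interval there ran from -0.51 to 0.36 around a log2 fold change of -0.072 (SE 0.21, adjusted p = 0.821). At 48 h the mice had 47.5, 30.8, 51.4 and 50.5 CPM, all below the 24 h mice but in overlap with vehicle (log2 fold change against vehicle -0.44, interval -0.87 to 0.00040, adjusted p = 0.117). Neurod6 was the only 1 of the 8 genes whose 48 h mice all lay below all of the 24 h mice. In this comparison 0.853% of all genes were lower without overlap, and the adjusted p of Neurod6 in edgeR was 1. At 7 days it had 59.9, 36.9, 47.1 and 42.0 CPM, a log2 fold change of -0.39 (SE 0.21, interval -0.83 to 0.043, adjusted p = 0.350).

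As shares of the 3 NeuroD genes per kb, Neurod6 held 68.0% ± 3.68, Neurod1 16.4% ± 1.39 and Neurod2 15.6% ± 2.83 in vehicle mice. At 24 h Neurod2 held 23.0% ± 5.57 and Neurod1 10.6% ± 3.74, and at 48 h 25.4% ± 5.74 and 14.2% ± 2.81. The share of Neurod6 was 66.4% ± 9.01 and 60.5% ± 8.37 at these times. Neurod6 remained the most abundant of the 3 in all 16 mice.

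Emx1, the dorsal telencephalic homeobox gene, had a vehicle range of 5.40 to 10.3 CPM. The 24 h mice had 8.17 to 13.1 CPM, the 48 h mice 8.89 to 16.1 and the 7-day mice 5.60 to 9.64. These groups overlapped throughout. Log2 fold changes were 0.19, 0.37 and -0.24 (SE 0.30 each), with intervals that together ran from -0.87 to 1.00 and adjusted p of 0.667, 0.364 and 0.715. It had 48 to 111 counts in a mouse.

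Nrgn, the calmodulin-binding protein of the postsynapse, was the member called in the test over the 4 groups. Vehicle mice had 16.2, 22.9, 22.1 and 20.2 CPM, the 24 h mice 25.6, 24.9, 26.9 and 27.8, the 48 h mice 28.1, 29.0, 21.8 and 35.5, and the 7-day mice 16.3, 19.1, 12.1 and 14.4. Its means were 20.4 ± 2.96, 26.3 ± 1.32, 28.6 ± 5.61 and 15.5 ± 2.92 CPM in this order, highest at 48 h and lowest at 7 days, and the 7-day and 48 h mice each overlapped the vehicle mice. Against vehicle edgeR called no single time, while DESeq2, voom and edgeR with total counts only called 48 h. The log2 fold change was 0.37 at 24 h (SE 0.21, interval -0.064 to 0.80, adjusted p = 0.197), 0.49 at 48 h (SE 0.21, interval 0.057 to 0.92, adjusted p = 0.0784) and -0.39 at 7 days (SE 0.21, interval -0.83 to 0.040, adjusted p = 0.346). All 4 of the 7-day mice lay below all of the 24 h mice and below all of the 48 h mice, as were 2.72% and 3.02% of all genes. The log2 differences were -0.76 against 24 h (SE 0.21, interval -1.20 to -0.33, unadjusted p = 0.00168 and adjusted p = 0.146 in edgeR) and -0.89 against 48 h (SE 0.21, interval -1.32 to -0.45, unadjusted p = 0.000454 and adjusted p = 0.130 in edgeR). DESeq2 called both, with 2.72% and 2.92% of the genes to which it gave an adjusted p. The call among the 4 groups was lost with library 1 of each mouse alone, where 19.8% of all genes were called. It was also lost with the mitochondrial or the Rn18s-rs5 share as a covariate, where hardly any gene was called (0.73% and 0% of all genes). With no filter on low counts Slc17a7 was called in its place. With any 1 mouse left out it was kept.

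**Figure D3:**
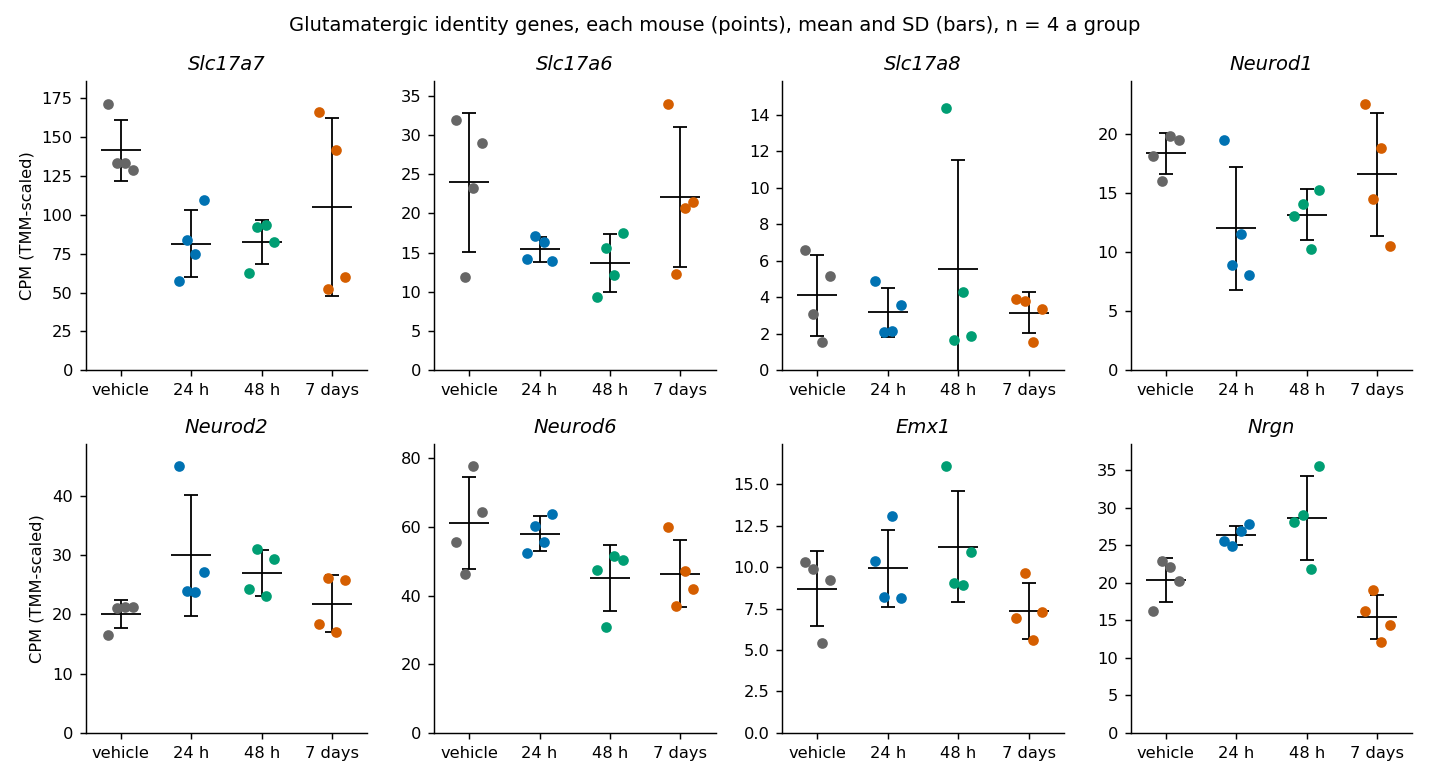
CPM of each gene in each of the 16 mice (points) with the mean and SD of the 4 mice of a group (bars; the SD bar of Slc17a8 at 48 h is cut at 0). Slc17a7 is lower and Neurod2 higher in all 24 h and 48 h mice than in any vehicle mouse, and the 7-day mice spread widely for Slc17a7 and have the lowest mean of Nrgn, in overlap with the vehicle mice.

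Ratios within a mouse set the genes against each other without a library scale. Of 8 pairs computed, 3 are described that were chosen after their values were seen, and they carry no test. In the other 5 the vehicle mice overlapped both the 24 h and the 48 h mice, as in Slc17a7 over Slc17a6 (4.46 to 11.3 in vehicle mice, 4.08 to 7.87 at 24 h and 4.70 to 7.71 at 48 h). Neurod2 over Neurod1, per kb, was 0.792 to 1.15 in vehicle mice, 1.79 to 2.93 at 24 h and 1.62 to 1.96 at 48 h, with no overlap between treated and vehicle mice. Slc17a7 over Neurod2 was 3.54 to 6.03 in vehicle mice and at most 2.36 at 24 h and at 48 h. Slc17a7 over Nrgn was 1.57 to 2.84 in vehicle mice, 0.608 to 1.06 at 24 h and 0.603 to 1.16 at 48 h. At 7 days these ratios ran from 0.709 to 2.14, 1.17 to 5.26 and 0.742 to 3.15, so that single mice lay at either end.

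**Figure D4:**
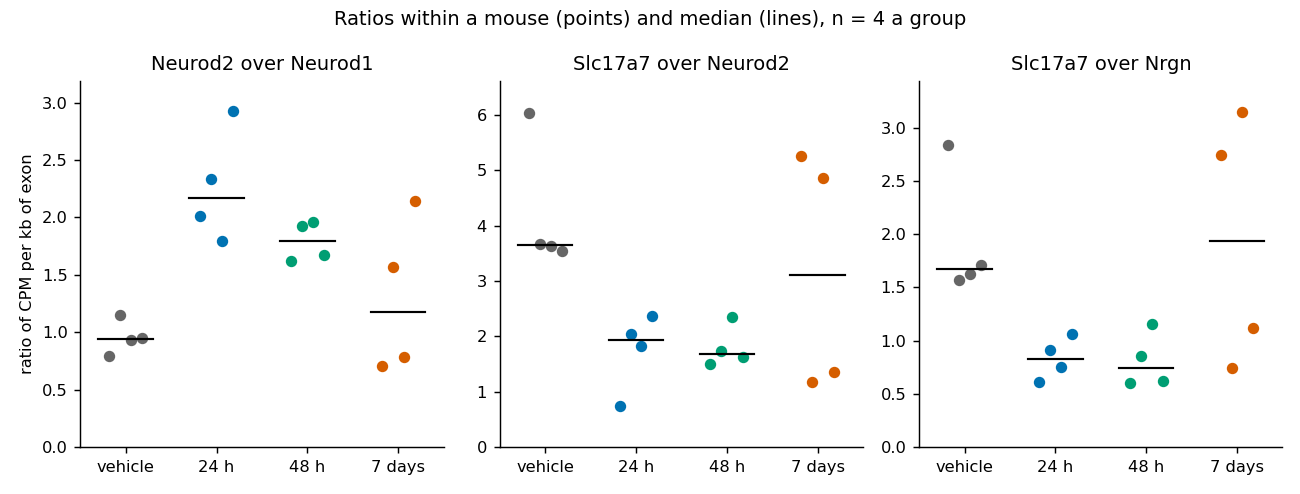
Ratio of CPM per kb of exon between pairs of the genes within each mouse (points), with the median of the 4 mice of a group (lines). The 24 h and 48 h mice are apart from the vehicle mice in all 3 panels, which were chosen for that, and the 7-day mice lie at both ends; 5 other pairs overlapped.

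The 7-day mice also differed in library measures. The Rn18s-rs5 share was 0.00834%, 0.633%, 0.00607% and 0.474% in mice 1 to 4, and the mitochondrial share was 0.0413%, 0.13%, 0.021% and 0.114%. Mice 2 and 4 had the lower Slc17a7 (52.4 and 60.0 CPM) and the higher Neurod2 (26.1 and 25.9 CPM), and mice 1 and 3 the higher Slc17a7 (166 and 142 CPM) and the lower Neurod2 (18.4 and 17.0 CPM). The 10 markers of striatal projection neurons summed to 724, 2084, 459 and 1550 CPM in 7-day mice 1 to 4 and to 379 to 465 CPM in vehicle mice. The part of these measures in the member values was not tested.

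Genes that work beside the members were called in both directions. With 1 mouse left out, 7 to 14 of the list genes reported here stayed or became called at 24 h and 9 to 13 at 48 h, against 13 at each time with all mice. Camk2a, Ppp3r1, Nptx1 and Mal2 were called at both times whichever of the 8 mice compared was left out, and the 24 h call of Slc32a1 was lost in each case. Over all genes tested 13.8% were called higher and 10.4% lower at 24 h, and 16.8% and 13.3% at 48 h. Of the vesicular transporters of other transmitters 5 of 7 were tested, 1 rose at 24 h, and at 48 h 1 rose and 1 fell (median log2 fold change -0.29 and -0.20). Slc32a1, the vesicular GABA transporter of inhibitory neurons, rose from 4.07 ± 0.537 CPM in vehicle to 8.73 ± 1.39 at 24 h (log2 fold change 1.10, SE 0.38, adjusted p = 0.0443) and 11.2 ± 0.750 at 48 h (1.46, SE 0.38, adjusted p = 0.0104). Slc17a5, the lysosomal sialic acid transporter, fell at 48 h (log2 fold change -0.59, SE 0.21, adjusted p = 0.0445), a call lost in 6 of 8 fits with 1 mouse left out (vehicle or 48 h mouse 1, 2 or 4). Of the GABA-synthesising enzymes, Gad1 (-0.84, SE 0.22, adjusted p = 0.0135) and Gad2 (-0.63, SE 0.21, adjusted p = 0.0352) fell at 24 h. The call of Gad1 was kept whichever mouse was left out, and that of Gad2 was lost in 6 of 8 fits (vehicle or 24 h mouse 1, 2 or 4).

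Of the list of glutamate supply and uptake, 13 genes are reported here, all tested. Of these 1 fell at 24 h and none was called at 48 h. Slc1a1, a neuronal glutamate uptake carrier, had 181, 146, 158 and 191 CPM in vehicle mice and 106, 133, 131 and 134 CPM at 24 h. The 24 h mice lay below the vehicle mice without overlap, and Slc1a1 fell (log2 fold change -0.42, SE 0.15, adjusted p = 0.0497). This call was lost with RLE scaling, with total counts only, with no filter, with either library alone and with the replicate block. It was also lost with either covariate, without the 3 mice with another number in the header, and with any 1 of the 8 mice left out.

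Of the lineage transcription factors 10 of 14 were tested and 1 rose at both times (median log2 fold change 0.069 and 0.037). Tbr1, a T-box factor of deep-layer cortical neurons, had 38.1 to 49.0 CPM in vehicle mice, 59.2 to 120 at 24 h and 57.4 to 88.6 at 48 h. Its log2 fold change was 0.83 at 24 h (SE 0.27, adjusted p = 0.0347) and 0.86 at 48 h (SE 0.27, adjusted p = 0.0250). The 24 h call was lost in 6 of 8 fits with 1 mouse left out (any vehicle mouse, 24 h mouse 1 or 4), and the 48 h call also in 6 of 8 (vehicle mouse 1, 2 or 4, 48 h mouse 2, 3 or 4). Of the bHLH partners and antagonists of the NeuroD factors 8 of 10 were tested and 1 fell at both times (median -0.20 and -0.26). Id4, an inhibitor that binds E proteins and keeps them from DNA, fell from 17.2 ± 2.52 CPM in vehicle to 6.76 ± 4.97 at 24 h (log2 fold change -1.35, SE 0.37, adjusted p = 0.0146) and 7.25 ± 2.02 at 48 h (-1.24, SE 0.36, adjusted p = 0.0173; the 48 h call was lost without 48 h mouse 3). At 24 h mouse 1 had 14.2 CPM of Id4, close to the vehicle range of 14.4 to 19.6 CPM, and the other three 3.6 to 4.9 CPM. The same mouse had the high Neurod1 and Neurod2 values.

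The calmodulin and neurogranin partners held the largest called change of the lists. Of 11 genes 3 rose and 2 fell at 24 h, and 3 rose and 3 fell at 48 h (median log2 fold change 0.43 and 0.41). Camk2a, the calmodulin-dependent kinase subunit of excitatory synapses, had 185, 222, 162 and 151 CPM in vehicle mice and 622, 1701, 2126 and 1172 CPM at 24 h. Its log2 fold change was 2.96 at 24 h (SE 0.56, adjusted p = 0.00308) and 2.96 at 48 h (SE 0.56, adjusted p = 0.00221), and the 7-day mice had 128, 1176, 164 and 1005 CPM. Camk2b, another subunit of the kinase, rose by 0.61 at 24 h (SE 0.18, adjusted p = 0.0235) and 0.57 at 48 h (SE 0.18, adjusted p = 0.0271) on the log2 scale, but at each time the call was lost in 5 of 8 fits (without vehicle mouse 2, 3 or 4 or treated mouse 2 or 4). Ppp3r1, the regulatory subunit of the phosphatase calcineurin, fell by 1.74 at 24 h (SE 0.39, adjusted p = 0.00557) and 1.87 at 48 h (SE 0.39, adjusted p = 0.00309). Calm2, a calmodulin gene, fell by 0.68 and 0.81 (SE 0.20 each, adjusted p = 0.0203 and 0.00711), and its 24 h call was lost without 24 h mouse 1 or 2.

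Among 12 other markers of excitatory neurons 3 rose and 1 fell at 24 h, and 3 rose at 48 h (median log2 fold change -0.175 and -0.078). Mal2, a membrane trafficking protein, rose from 263 ± 24.8 CPM to 816 ± 361 at 24 h (log2 fold change 1.63, SE 0.38, adjusted p = 0.00740) and 762 ± 178 at 48 h (1.53, SE 0.38, adjusted p = 0.00790). Nptx1, a secreted pentraxin of excitatory synapses, rose by 1.47 at both times (SE 0.26 each, adjusted p = 0.00260 and 0.00181). Sv2b, a synaptic vesicle glycoprotein, fell from 705 ± 95.1 to 351 ± 136 CPM at 24 h (-1.01, SE 0.31, adjusted p = 0.0250), a call lost without vehicle or 24 h mouse 1 or 4. At 7 days edgeR called no gene of the 6 lists and none of all genes tested, of which 3012 (16.8%) had an unadjusted p under 0.05. DESeq2 called 796 genes there (4.44%), none of them among the 58 tested list genes reported here. Without the filter on low counts edgeR called 958 genes at 7 days (2.62%), and 4 of them were of these lists: Pcp4, Camk2a, Ppp3r1 and Mal2. Without 7-day mouse 1 it called 1342 genes (7.26%), with Mef2c, Camk2a, Ppp3r1 and Mal2 of the lists, and without 7-day mouse 3 it called 1160 (6.28%), with Pcp4, Camk2a, Nptx1 and Mal2. The smallest p of the lists reported there belonged to Slc32a1 (log2 fold change 0.55, adjusted p = 0.490), Mef2c (-0.55, adjusted p = 0.189), Tcf12 (-0.32, adjusted p = 0.409), Camk2a (1.78, adjusted p = 0.122) and Nrn1 (-0.64, adjusted p = 0.154).

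**Figure D5:**
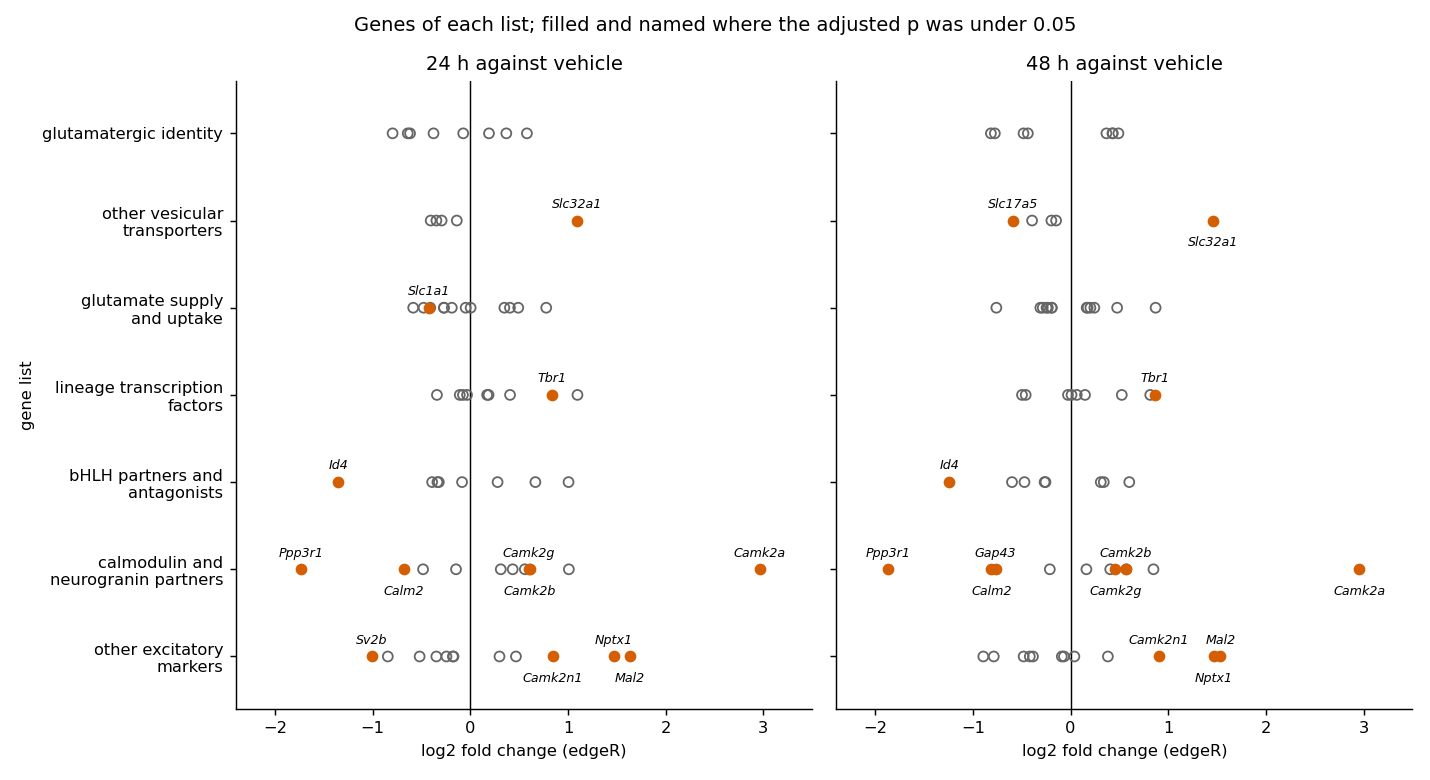
Log2 fold change against vehicle (edgeR, 4 mice a group) at 24 h (left) and 48 h (right) of the 8 genes and of the 6 lists of genes that work with them, 1 point a gene (genes not reported here left out), filled and named where the adjusted p was under 0.05. No point of the first row is filled, and Camk2a lies farthest to the right in both panels.

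With the Rn18s-rs5 or the mitochondrial share as a covariate, each list gene named above as risen or fallen kept its direction at the times it was called, but not its size. With the Rn18s-rs5 share the 24 h log2 fold changes of Calm2 (-0.97), Slc1a1 (-0.63), Sv2b (-1.39) and Tbr1 (1.06) were larger than without it, and those of Ppp3r1 (-1.42) and Camk2b (0.52) not much smaller. Those of Camk2a (1.80), Mal2 (1.11), Nptx1 (0.88), Id4 (-0.74) and Slc32a1 (0.65) were smaller. At 48 h they were -1.17 for Calm2, 1.16 for Tbr1, -0.92 for Slc17a5, -1.45 for Ppp3r1 and 0.46 for Camk2b. They were 1.61 for Camk2a, 0.87 for Mal2, 0.74 for Nptx1, 0.90 for Slc32a1 and -0.34 for Id4. With the mitochondrial share the 48 h values of Mal2 (0.41), Nptx1 (0.60), Tbr1 (0.20), Camk2a (1.82) and Slc32a1 (0.81) were smaller by over 1.5 times, and Id4 (-1.11) and Ppp3r1 (-1.33) changed less. Calm2 (-1.01), Slc17a5 (-0.87) and Camk2b (0.62) were larger. At 24 h the values with the mitochondrial share were within 1.5 times of those without it, such as 2.54 for Camk2a and -1.56 for Ppp3r1. No adjusted p was under 0.05 with the Rn18s-rs5 share at either time or with the mitochondrial share at 48 h.

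The genes most like each member were found by Pearson's r of log2 CPM over the 16 mice, among the 10873 or 10874 genes whose mean log2 CPM reached 3. The mice of a group share their treatment and library measures, so r is a description only. Slc17a7 was most like Rexo1 (r = 0.948), Shank1 (0.945) and March1 (0.934). Neurod2 was most like Nr2f1 (r = 0.933), Vmn2r84 (0.923) and Shank3 (0.918), and Neurod1 most like Mrpl3 (0.911), Rcor1 (0.910) and Wdfy1 (0.903). Shank1 and Shank3 encode scaffold proteins of excitatory synapses, and Rcor1 encodes a partner of the neuronal repressor REST. Nrgn was closest to Serbp1 (r = 0.840), Npas3 (0.825) and Kantr (0.820), and Slc17a6 to Sec61a2 (0.832), Zbtb44 (0.818) and Mad2l1 (0.816). For Neurod6 the closest were Pdap1 (r = 0.778) and Slc9a7 (0.756). For Emx1 they were Arl4c (0.798), Pitpnc1 (0.760) and Rap2b (0.753), and for Slc17a8 they were Cmc1 (0.797), Dnajc15 (0.775) and Erbb4 (0.771). No gene was on the lists of 2 members, and none of the 8 was on the list of another.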

How the data were processed

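Raw counts per gene were used as deposited. The authors counted reads with featureCounts 2.0.0, per the file headers, over the exons of each gene ID of a GRCm38 annotation with default options, without a strand option and leaving out reads on exons of several genes. Per the submitters' processing notes, Trim Galore 0.6.5 was among the tools; the aligner of the RNA reads is not given in the sources used here. Of 55401 gene IDs 55141 (99.5%) were matched to a symbol. For 3 mice (24 h mouse 1, 48 h mouse 2 and 7-day mouse 2) the header carried another mouse number than the label, and the label was used. The 52 chromatin samples were not analysed here.

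The 2 libraries of each mouse were not duplicates (chi-square over degrees of freedom 1.39 to 2.90) and were summed. Genes were kept with filterByExpr, scaled with TMM and tested with edgeR 4.0.16 (R 4.3.3; glmQLFit and glmQLFTest) in 1 fit of 16 mice in 4 groups, with Benjamini-Hochberg adjustment over 17941 genes and a threshold of 0.05. The fit made 6 pairwise comparisons, those with a shared group not being independent. SE is the absolute fold change over the root of F. Log2 CPM had a prior count of 2. On simulated counts for 24 h against vehicle (17941 genes, dispersion 0.1) 150 of 200 genes changed 3-fold were recovered, with 9 false calls. Alternatives were DESeq2 1.42.0, limma 3.58.1 voom, other scaling and filters, thresholds, single libraries, left-out mice, a replicate block and library measures as covariates.

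The labels give each mouse 2 libraries but say nothing of litters or batches, and they name no pairing of mice between groups. The members, lists and tests were chosen with earlier results of these data known. All members were named. Some genes of the lists are not reported here. From each list up to 2 called genes per direction and time with the largest fold change were named, or the gene of smallest p where none was called, and for each member the 3 most alike genes. Rbfox3, Snap25 and interneuron and other marker genes were named beside these for background. E-boxes and promoter windows were taken from RefSeq (GRCm38.p6).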

Additional observations from a re-analysis of the deposited data

Results flagged for a closer look

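Among the values of the 8 genes, 3 lay apart from the other 3 mice of their group by Dixon's criterion for 4 values. Slc17a7 in vehicle mouse 1 was at 171 CPM, with the nearest vehicle mouse at 133 CPM. Neurod2 in the same mouse was at 16.5 CPM, with the nearest at 21.2 CPM. Neurod2 in 24 h mouse 1 was at 45.1 CPM, with the nearest at 27.1 CPM. Over the 68 groups of values examined, chance flags about 1 in 20, which is about as many as were found. The header of 24 h mouse 1 carried another mouse number than its label.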

How the results depend on the processing

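The number of members called is given for each alternative that moved it, with the share of all genes called in brackets. Against vehicle it was 2 at 24 h and 3 at 48 h with a threshold of 0.1 (34.3% and 40.4%), 1 and 3 with DESeq2 (30.2% and 35.3%), 2 and 3 with limma voom (40.3% and 43.4%), 1 and 2 with no filter (13% and 15.5%), 1 and 2 with only the 2 groups compared (36.7% and 41.5%), and 1 and 1 without the 3 mice with another number in the header (19.4% and 25.2%). It was 1 at 48 h with total counts only (Nrgn; 29.5%) and 1 at 24 h with either library alone (Neurod2 with library 1, 25%, and Neurod1 with library 2, 24.1%). DESeq2 called 1 member (Nrgn) at 7 days against 24 h (2.72%) and 1 against 48 h (2.92%). In the test over the 4 groups 3 members were called with voom (39.7%) and 0 with a threshold of 0.01 (4.67%), with library 1 alone (19.8%), with the mitochondrial share (0.73%) and with the Rn18s-rs5 share (0%). Leaving out 1 mouse gave 0 to 1 members at 24 h (Neurod1 without 24 h mouse 1, 17.4%), 0 to 1 at 48 h (Slc17a6 without vehicle mouse 2, 19.4%) and 0 to 1 at 7 days against 48 h (Nrgn without 7-day mouse 2, 2.14%). The causes were not tested. Of the fold changes against vehicle, Slc17a8 at 48 h turned to -0.10 with voom and -0.58 with the Rn18s-rs5 share, Neurod6 at 24 h to 0.032 with total counts and 0.048 with library 2, Neurod1 to 0.072, 0.46 and 0.027 at 24 h, 48 h and 7 days with the Rn18s-rs5 share, and Slc17a6 at 7 days to 0.080 without the 3 mice. With 1 mouse left out, the range crossed 0 for Slc17a6 at 7 days (-0.40 to 0.075), Neurod6 at 24 h (-0.20 to 0.065), Slc17a8 at 48 h (-0.67 to 0.76) and Neurod1 at 7 days (-0.33 to 0.017). With the mouse number as a replicate block 0 members were called against vehicle and 1 over the 4 groups, as without it. Same-numbered mice had a mean correlation of -0.0362 over 24 pairs (-0.282 to 0.244). The labels name no pairing, and this mean cannot exclude one, as 3 mice carry another number in the header.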
